A study of Mus musculus with 8 samples.

Results

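The integrins and laminins are 37 protein-coding genes among the 39179 genes of the count table, taken by symbol as all those named Itga, Itgb, Lama, Lamb or Lamc with a subunit number or letter: 18 integrin alpha subunits, 8 integrin beta subunits and 11 laminin chains. They were measured in polyA RNA of mouse epithelial pancreatic cancer cells, which carry a green fluorescent label and had been grown for 72 hours in 0.5% dialyzed serum together with stellate cells, a fibroblast type of the pancreas, carrying a red label. In 4 libraries the culture held an antibody at 20 µg/mL against the secreted ligand sonic hedgehog (SHH), which it neutralizes. The 4 libraries set against them had no antibody, and the labels name no control antibody. In both arms the cells have the strain background FVB/B6 mix and the same genotype, which includes p48Cre, ROSA_rtTAL+ and p53L+. The Cre of the p48 gene acts in the pancreatic lineage, rtTA is a transactivator that needs a tetracycline-type inducer, and the labels do not say whether the inducer was present. Only the green cancer cells were sorted and sequenced. Whether the 4 samples of an arm came from separate cultures of 1 line or from several lines is not stated beyond the word biological. The p-values therefore set the difference between the arms against the spread between these samples only.

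Integrins are membrane receptors made of 1 alpha and 1 beta subunit, and the pair decides which matrix protein is bound. The ITGB1 chain pairs with most alpha subunits, ITGAV pairs with several beta subunits, and ITGB4 pairs with ITGA6 in the hemidesmosome, the junction that holds epithelial cells to their basement membrane. Laminins are the matrix proteins of that membrane, each a trimer of an alpha, a beta and a gamma chain, and several integrins are their receptors. In carcinomas ITGB6, which is made by epithelial cells and pairs only with ITGAV, is known as an activator of latent TGF-beta.

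With the antibody the beta subunit genes Itgb6, Itgb4 and Itgb3 and the alpha subunit gene Itga1 rose, and the alpha subunit genes Itga2 and Itga3 fell, while no laminin chain was called. Of the 37 genes 22 had enough counts to be tested, and 6 of these 22 were called, all of them integrins (edgeR's quasi-likelihood F test, with an adjusted p under 0.05 over all 13626 genes tested). Over all genes tested 8.4% were called, 4.53% as higher and 3.87% as lower. Among the members, which were chosen with earlier results of these data known, 27.3% were called. The 6 called genes lie within a fold of 1.17 to 1.59 in either direction, where the median called gene of the whole table had a fold of 1.23. The CPM ranges of the arms did not overlap in 7 of the 22 members, the 6 called ones and Lamb1, and in 14.3% of all genes tested. Of these 7 members 4 were higher and 3 lower, beside 7.71% and 6.56% of all genes tested.

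The set of RefSeq promoters used here holds an entry for 23 of the 37 members and for 4 of the 6 called ones. The 250 bases before the RefSeq start (GRCm38.p6, written 5′ to 3′ on the strand of the gene) are shown for Itgb6, the largest rise, for the neighbouring genes Itga1 and Itga2, which moved in opposite directions, and for Itga3, the most abundant called gene. Capitals mark matches, on either strand, to any of 5 short motifs.
Itgb6 (chr2:60722604-60722853, minus strand): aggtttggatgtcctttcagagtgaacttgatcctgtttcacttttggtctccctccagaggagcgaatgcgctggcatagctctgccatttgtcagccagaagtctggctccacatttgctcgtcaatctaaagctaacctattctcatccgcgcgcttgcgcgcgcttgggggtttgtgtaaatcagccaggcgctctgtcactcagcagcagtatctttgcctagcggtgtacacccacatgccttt
Itga1 (chr13:115101965-115102214, minus strand): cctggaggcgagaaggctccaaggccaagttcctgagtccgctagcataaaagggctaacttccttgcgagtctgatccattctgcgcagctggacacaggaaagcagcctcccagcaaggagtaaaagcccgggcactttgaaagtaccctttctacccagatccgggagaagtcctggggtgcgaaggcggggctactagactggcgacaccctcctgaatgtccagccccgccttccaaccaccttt
Itga2 (chr13:114932101-114932350, minus strand): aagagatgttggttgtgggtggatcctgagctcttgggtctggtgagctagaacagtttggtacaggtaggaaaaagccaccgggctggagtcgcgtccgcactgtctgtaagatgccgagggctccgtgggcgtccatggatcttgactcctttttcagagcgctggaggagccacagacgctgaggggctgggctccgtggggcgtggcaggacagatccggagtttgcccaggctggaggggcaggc
Itga3 (chr11:95076715-95076964, minus strand): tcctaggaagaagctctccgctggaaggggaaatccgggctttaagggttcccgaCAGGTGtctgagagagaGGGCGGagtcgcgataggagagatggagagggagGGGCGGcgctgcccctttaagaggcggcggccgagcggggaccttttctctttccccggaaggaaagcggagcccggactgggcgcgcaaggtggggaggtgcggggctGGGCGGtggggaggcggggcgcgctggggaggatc
The motifs were GACCACCCA, the consensus of the hedgehog effectors of the GLI family, TGANTCA for AP-1, the GC box GGGCGG, the TATA box TATAAA and CACCTG, an E-box bound by the Snail and ZEB repressors. The Itga3 window held 3 GC boxes and 1 CACCTG, with no overlap between them, and the 3 other windows held 0 matches. Among all 32851 promoter windows of this length 0.225% held the GLI consensus, 6.75% the AP-1 motif, 32.7% a GC box, 12.4% a TATA box and 17.2% the E-box. A match in these letters is a description only. The RefSeq starts of Itgb6 and Itga3 lie 40 and 87 bases inside the genes of the authors' deposited table. That of Itga1 lies 0 bases from the deposited gene start, and that of Itga2 lies 59 bases upstream of it. The last 40 bases of the Itgb6 window and the last 87 of the Itga3 window are thus within the deposited genes. In Itga3 these include the GC box nearest the RefSeq start.

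The libraries with antibody were deeper, with 14953255 to 15733280 counts, than those without, with 10009711 to 14602784. One library stood apart: replicate 1 without antibody had the highest CPM of all 8 libraries in 16 of the 22 tested members, and 6.48% of its counts were mitochondrial, against 4.10% to 5.02% in the antibody libraries and 4.33% to 4.73% in the other 3 without antibody. Without it the same 6 members were called. Stellate cell markers were scarce: the 16 markers summed to 29.4 to 58.5 CPM with antibody and 27.7 to 51.2 CPM without, and Dcn, Lum and Lrat had no count in any library. Of the 7 stellate markers tested, whose median log2 fold change was 0.47, none was called as higher and Pdgfra was called as lower (-0.84 ± 0.17 SE, edgeR adjusted p = 0.00271). The other 6 had positive log2 fold changes of 0.24 to 0.66, with edgeR adjusted p-values of 0.156 to 0.707. Of the 7, 4 had an edgeR unadjusted p under 0.05, beside 21.5% of all genes tested. They were Pdgfra, which was lower, and Col1a1, Col3a1 and Col5a2, which were higher with antibody. With the stellate marker level of each library as a covariate the same 6 members were called, and Itga5 and Lamb1 with them. The sums were 66.4 to 69.2 CPM with antibody and 67.1 to 72.9 CPM without for 10 leukocyte and platelet markers, of which Cd3e, Emr1 and Gp9 were among those with no count. Nearly all of that sum was Cd14, at 61.7 CPM on average with antibody and 65.5 CPM without, and the general leukocyte marker Ptprc was at 0.342 CPM with antibody and 0.308 CPM without. For 5 endothelial markers they were 12.8 to 14.3 CPM with antibody and 11.3 to 12.9 CPM without, most of it Cdh5, at 12.6 CPM on average with antibody and 11.5 CPM without. The 6 epithelial markers, Epcam, Cdh1 and 4 keratins, summed to 7316 to 7731 CPM with antibody and 6776 to 7767 CPM without, so that markers of the labelled epithelial cell type were abundant. Of these 6, Epcam was called as higher (log2 fold change 0.28 ± 0.08 SE, edgeR adjusted p = 0.022) and none as lower. Epcam, Pdgfra, Cd14, Ptprc and Cdh5 were singled out after their values were seen. In RNA from a sorted population, fewer cells that make a transcript and less of it per cell cannot be told apart.

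Levels per gene length, as the authors' RPKM values, show how much RNA of each subunit gene these cells held. Among the alpha subunits Itga3, whose product pairs with ITGB1 as a laminin receptor, was highest, at 129.7 ± 4.84 RPKM with antibody and 155 ± 9.88 RPKM without (SD, n = 4 each, as for all means here). The laminin receptor subunit Itga6 followed at 49.1 ± 1.23 RPKM with antibody and 50.4 ± 2.93 RPKM without. The collagen receptor subunit Itga2 was at 28.1 ± 1.16 RPKM with antibody and 32.5 ± 2.29 RPKM without. Next came Itgav, whose product binds the RGD sequence of fibronectin and vitronectin, at 25.4 ± 0.885 RPKM with antibody and 24.1 ± 1.47 RPKM without. In both arms each of these 4 genes was above the next in every library. Below them Itga5, which encodes the fibronectin receptor subunit, Itga1 and Itga7 lay between 9.59 and 13.5 RPKM on average. Without antibody the ranges of Itga7 and Itga1 overlapped, at 9.63 to 10.8 and 9.12 to 9.96 RPKM. With antibody Itga1 (11.15 to 11.49 RPKM) was above Itga7 (9.13 to 10.1 RPKM) in every library, so that their order was turned round.

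Among the beta subunits Itgb1, the common partner chain, averaged 155 ± 3.14 RPKM with antibody and 153 ± 9.52 RPKM without. Itgb5, a partner of ITGAV, averaged 27.2 ± 0.612 RPKM with antibody and 26.4 ± 1.04 RPKM without. Itgb4 averaged 9.12 ± 0.437 RPKM with antibody and 6.603 ± 0.294 RPKM without. The 3 lowest of the tested beta genes were Itgb3, Itgb7 and Itgb6. Without antibody Itgb7, a chain known mainly from lymphocytes, was above Itgb6 in every library, at 1.97 to 2.70 RPKM against 0.828 to 1.23 RPKM, and with antibody their ranges overlapped, at 1.51 to 2.00 and 1.41 to 1.76 RPKM.

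Among the laminin chains Lama5 was highest, at 72.1 ± 1.47 RPKM with antibody and 74.9 ± 4.36 RPKM without. Lamb1 and Lamc1 lay between 33.1 and 41.1 RPKM on average, and Lamb2 at 15.8 ± 0.284 RPKM with antibody and 16.0 ± 1.54 RPKM without. Lamb3, whose product is a chain of the laminin at hemidesmosomes, averaged 3.15 ± 0.0996 RPKM with antibody and 3.36 ± 0.197 RPKM without. Lama3, the gene of another chain of that laminin, had 9 to 33 counts per library and averaged 0.172 ± 0.0235 RPKM with antibody and 0.185 ± 0.0724 RPKM without.

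**Figure D1:**
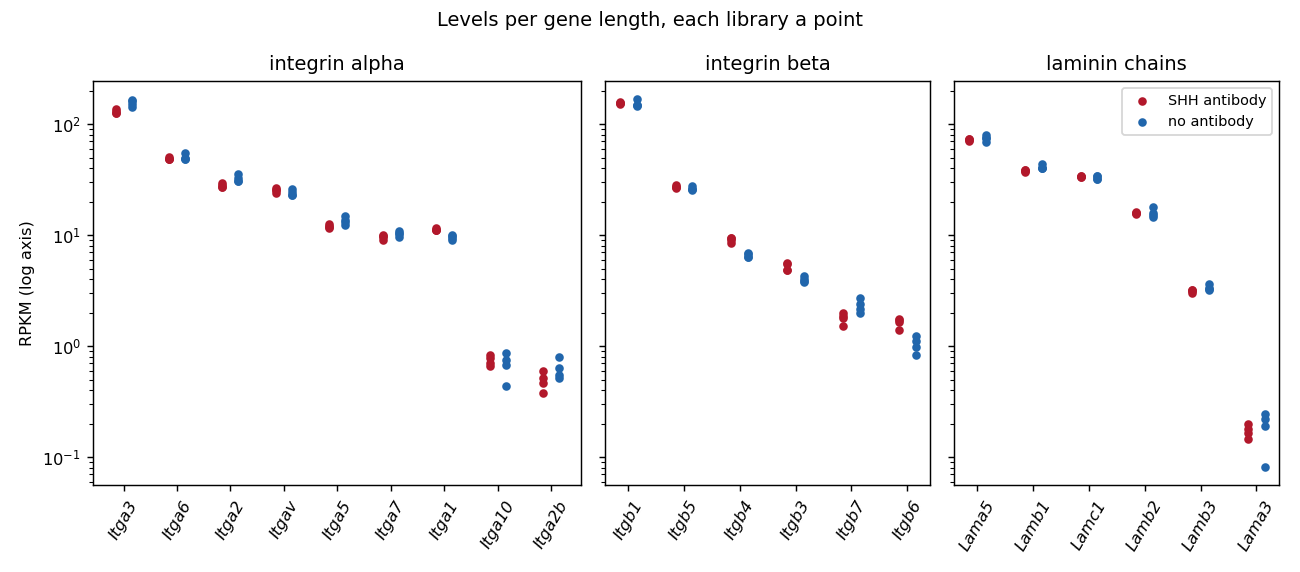
RPKM of 21 tested genes on a log axis, in 3 panels for integrin alpha subunits, integrin beta subunits and laminin chains, with each library as a point, SHH antibody left of no antibody. Itga3, Itgb1 and Lama5 lead their panels in both arms, and Lama3 lies lowest.

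The largest rise among the members was that of Itgb6 (ENSMUSG00000026971, chromosome 2, 60598292 to 60722643, minus strand, GRCm38). It had 11.7, 10.03, 12.2 and 12.6 CPM with antibody, against 7.09, 8.01, 8.71 and 5.89 CPM without, where CPM are counts scaled to the TMM-adjusted size of each library. Every library with antibody was above every library without. The log2 fold change was 0.67 ± 0.12 SE, a fold of 1.59 with a 95% interval of 1.34 to 1.89 (edgeR, adjusted p = 0.000864). Per length Itgb6 had the lowest mean of the tested beta genes in both arms, at 1.64 ± 0.157 RPKM with antibody and 1.04 ± 0.173 RPKM without.

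Itgb4, the hemidesmosome chain (ENSMUSG00000020758, chromosome 11, 115974709 to 116008412, plus strand), had the smallest p of all members. Its values were 65.9, 63.2, 59.8 and 66.4 CPM with antibody, against 49.1, 47.9, 44.9 and 44.2 CPM without. The arms were far apart beside their spread, and the log2 fold change was 0.46 ± 0.06 SE (1.37-fold, interval 1.27 to 1.49, edgeR adjusted p = 1.32e-05). Itgb3 (ENSMUSG00000020689, chromosome 11, 104608000 to 104670476, plus strand), a chain of the vitronectin receptor with ITGAV, had 28.7, 32.9, 28.5 and 32.7 CPM with antibody, against 25.6, 22.5, 24.0 and 22.8 CPM without. It too was higher in each antibody library than in any other, with a log2 fold change of 0.37 ± 0.07 SE (1.29-fold, interval 1.16 to 1.44, edgeR adjusted p = 0.00223).

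The other beta genes were not called. Itgb1 had 628, 615, 629 and 649 CPM with antibody, against 692, 601, 605 and 610.0 CPM without, so that the antibody libraries lay within the range of the others. Its log2 fold change was 0.01 ± 0.05 SE (edgeR adjusted p = 0.959) and the 95% interval of its fold was 0.934 to 1.08. Itgb5 had 93.7, 90.4, 90.8 and 90.3 CPM with antibody, against 87.3, 94.2, 87.3 and 87.8 CPM without, also overlapping (log2 fold change 0.04, interval of the fold 0.958 to 1.10, edgeR adjusted p = 0.721). Itgb7 had a log2 fold change of -0.37 ± 0.14 SE from 4.13 to 5.50 CPM with antibody and 5.41 to 7.41 CPM without (edgeR adjusted p = 0.111). Itgb2, the leukocyte beta chain, and Itgb8, another partner of ITGAV, had 3 to 8 counts in each library and were not tested.

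Among the collagen receptor subunits Itga1 and Itga2 moved in opposite directions. These genes are neighbours on the minus strand of chromosome 13, Itga2 (ENSMUSG00000015533) at 114835916 to 114932041 and Itga1 (ENSMUSG00000042284) at 114958079 to 115101964 (GRCm38), with 26037 bases and 0 genes of the table between them. Itga1 had 66.3, 66.7, 68.6 and 67.2 CPM with antibody, against 57.8, 54.7, 59.6 and 58.5 CPM without. The arms did not overlap, and the log2 fold change was 0.22 ± 0.05 SE (1.17-fold, interval 1.08 to 1.252, edgeR adjusted p = 0.00697). Itga2 had 114, 120.1, 114 and 125 CPM with antibody, against 152, 129.5, 129.6 and 139 CPM without. Here every library with antibody was lower, with a log2 fold change of -0.22 ± 0.05 SE (fold 0.858, interval 0.793 to 0.928, edgeR adjusted p = 0.0127). The call of Itga2 was lost without replicate 3 of the antibody arm (log2 fold change -0.20, edgeR adjusted p = 0.0639). Pelo lies inside Itga1 on the same strand, but their exons share 0 bases in GENCODE M21, and Pelo itself had a log2 fold change of 0.01 (edgeR adjusted p = 0.945). Itga10, a cartilage collagen receptor subunit, had 2.25 to 4.60 CPM over both arms and was not called (log2 fold change 0.09, edgeR adjusted p = 0.840). Itga11, known from fibroblasts, had 1 to 6 counts per library with antibody and 0 to 2 without.

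Of the laminin receptor subunits Itga3 fell and Itga6 and Itga7 were not called. Itga3 (ENSMUSG00000001507, chromosome 11, 95044474 to 95076801, minus strand) had 771, 725, 712 and 748 CPM with antibody, against 950.4, 917, 875 and 808 CPM without. All 4 libraries with antibody were below all 4 without, with a log2 fold change of -0.26 ± 0.05 SE (fold 0.833, interval 0.772 to 0.898, edgeR adjusted p = 0.0023). Itga6 had 435, 440.2, 434 and 461 CPM with antibody, against 501, 439, 449 and 439 CPM without, which overlap (log2 fold change -0.05, interval of the fold 0.901 to 1.04, edgeR adjusted p = 0.655). Itga7, a laminin receptor subunit best known from muscle, had 40.0, 38.7, 36.5 and 39.4 CPM with antibody, against 44.0, 38.8, 41.6 and 41.5 CPM without. These too overlap (log2 fold change -0.10, interval of the fold 0.856 to 1.01, edgeR adjusted p = 0.327). Mettl7b, on the opposite strand, shares 9 exon bases with Itga7.

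**Figure D2:**
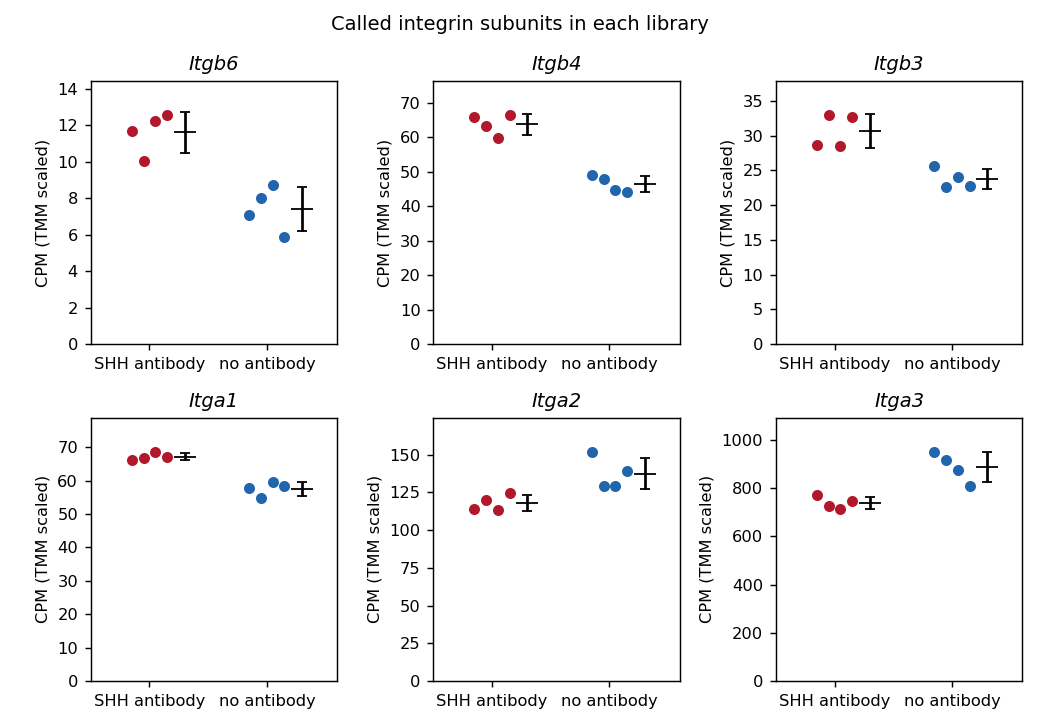
CPM (TMM scaled) of the 6 called subunits in each library, SHH antibody left of no antibody in every panel, with mean and SD in black beside the points. The points of the arms do not overlap in any panel; Itgb6, Itgb4, Itgb3 and Itga1 are higher and Itga2 and Itga3 lower with antibody.

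The RGD receptor alpha subunits were not called. Itga5, the partner of ITGB1 in the fibronectin receptor, had 55.0, 53.3, 50.3 and 52.6 CPM with antibody, against 65.8, 59.8, 57.9 and 54.2 CPM without. Replicate 4 without antibody lies within the range of the antibody arm, and the log2 fold change was -0.17 ± 0.06 SE (interval of the fold 0.816 to 0.969, edgeR adjusted p = 0.0882). Over 22 alternatives of the processing Itga5 was called as lower in 3 and not called in 19. It was called without replicate 4 of the arm without antibody (-0.22, edgeR adjusted p = 0.0293). With stellate marker levels as a covariate it was called too (-0.22, edgeR adjusted p = 0.0171). The remaining call came when all libraries were thinned to the depth of the smallest (-0.22, edgeR adjusted p = 0.0343). Itgav had 258, 274, 273 and 284 CPM with antibody, against 284, 248, 246 and 261 CPM without. These ranges overlap, replicate 1 without antibody lying at the level of the highest antibody library (log2 fold change 0.07, interval of the fold 0.973 to 1.13, edgeR adjusted p = 0.497). Without both replicates 1 and 4 of the arm without antibody Itgav was called as higher (0.14, edgeR adjusted p = 0.0135). In the other 21 of the 22 alternatives it was not called. Itga2b, the platelet fibrinogen receptor subunit, stood at 2.06 to 3.23 CPM with antibody and 2.81 to 4.44 CPM without (log2 fold change -0.37 ± 0.19 SE, edgeR adjusted p = 0.271).

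The remaining alpha subunits were near the limit of detection, where 3 counts equal 0.191 to 0.301 CPM. The leukocyte subunits Itgad, Itgae, Itgal, Itgam and Itgax had 0 to 7 counts in any library, and Itga4 and Itga8 had 0 or 1. Itga9, whose product binds tenascin and VCAM1, had 12, 11, 15 and 5 counts in the antibody libraries and 2, 6, 4 and 0 in the others. These ranges overlap and the gene did not reach the count minimum. When every gene was kept its log2 fold change was 1.45 (edgeR adjusted p = 0.0591). Among fits that left out libraries, only that without replicate 2 of the arm without antibody called it (2.09, edgeR adjusted p = 0.0493). The others that kept Itga9 gave log2 fold changes of 0.52 to 1.67 (edgeR adjusted p = 0.0821 to 0.587).

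The laminin chains were not called, 0 of 7 tested by edgeR, by DESeq2 and by limma voom, and 1 of them, Lamb1, had an unadjusted p under 0.05. Over all genes tested 8.4% were called and 21.5% had such an unadjusted p, so that both counts of the laminins are near the background. Among the alpha chains Lama5, the main one of mature epithelial basement membrane, had 828, 829, 795 and 824 CPM with antibody, against 929, 849.8, 856 and 794 CPM without. The arms overlap (log2 fold change -0.07, interval of the fold 0.889 to 1.03, edgeR adjusted p = 0.494). Lama3, at 1.48 to 2.08 CPM with antibody and 0.843 to 2.57 CPM without, had an interval of the fold from 0.632 to 1.32. Lama2 and Lama4 had 0 to 2 counts in each library, and Lama1 had 0 counts in all 8.

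Of the beta chains Lamb1, a partner of LAMC1 in many basement membranes, had 383, 374, 367 and 381 CPM with antibody, against 444, 399.7, 398 and 396 CPM without. Each antibody library was lower, but the log2 fold change of -0.12 ± 0.05 SE did not pass the test (edgeR adjusted p = 0.125). The interval of the fold was 0.858 to 0.984. Of the 22 alternatives 1 called Lamb1 as lower, that with stellate marker levels as a covariate (-0.16, edgeR adjusted p = 0.0254). Lamb2 had 87.6, 86.9, 88.5 and 91.1 CPM with antibody, against 103, 90.0, 86.0 and 81.7 CPM without. The antibody libraries lie within the range of the others (interval of the fold 0.900 to 1.07, edgeR adjusted p = 0.848). Lamb3 had 13.2 to 14.1 CPM with antibody and 13.9 to 16.1 CPM without (interval of the fold 0.823 to 1.05, edgeR adjusted p = 0.504).

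Of the gamma chains Lamc1, found in most laminins, had 275, 284, 281 and 279 CPM with antibody, against 285, 284, 268 and 264 CPM without (interval of the fold 0.953 to 1.08, edgeR adjusted p = 0.828). The ranges of the arms overlap. Lamc3 had 2 to 8 counts in each library and was not tested. The intervals of Lama5, Lamb1, Lamb2, Lamb3 and Lamc1 lie between 0.823 and 1.08, so that a change of the size of Itgb6 or Itgb4 is outside them.

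**Figure D3:**
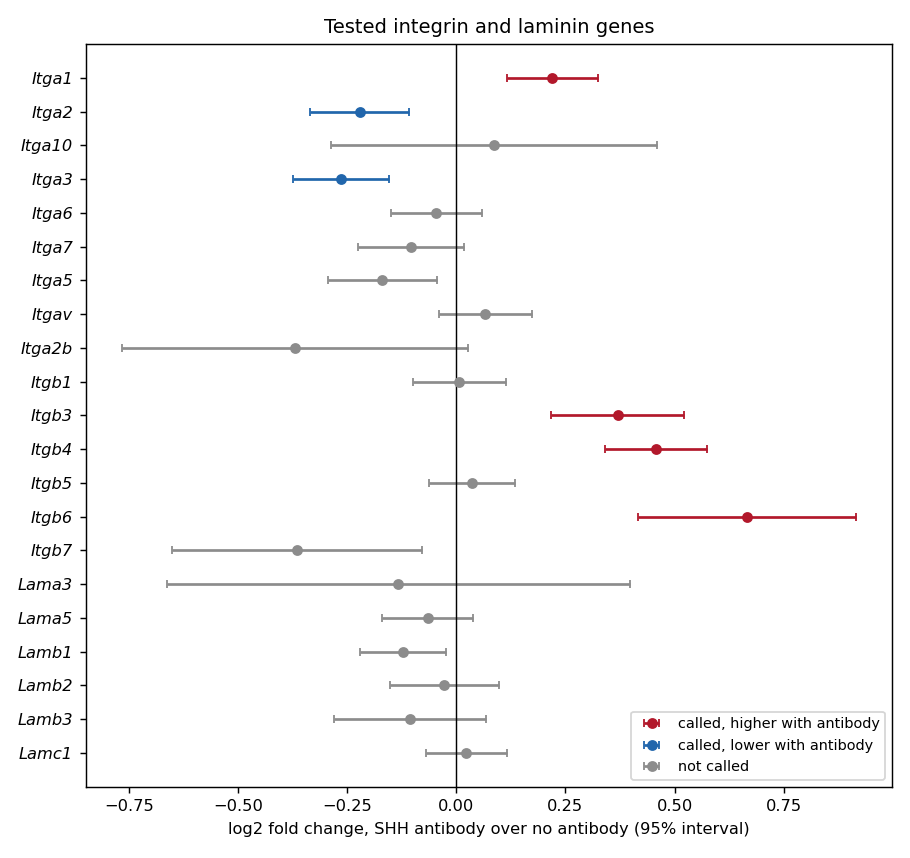
Log2 fold change, SHH antibody over no antibody, of 21 tested genes with its 95% interval, coloured by call. The 4 called rises lie at 0.22 to 0.67 and the 2 called falls at -0.26 and -0.22, and the 6 laminin chains shown lie between -0.13 and 0.02.

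The spread between libraries differed between the arms. The median coefficient of variation of the tested members was 3.59% with antibody and 6.83% without, where the common biological coefficient of variation of all genes tested was 3.24% with antibody and 7.01% without. The median log2 fold change was 0.01 over the 15 tested integrins and -0.07 over the 7 laminin chains, beside -0.0044 over all genes tested. The median size of the change, regardless of sign, was 0.22 for the integrins and 0.07 for the laminins, beside 0.09 over all genes tested.

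A called subunit can be set beside a known partner chain in the same library, a ratio that no scaling between libraries can change. The pairs were chosen with the fold changes known, so the ratios are a description. Per length, Itgb6 amounted to 0.0553 to 0.0686 of Itgav with antibody and 0.0340 to 0.0535 without. Itgb3 amounted to 0.190 to 0.218 of Itgav with antibody and 0.159 to 0.177 without. Itgb4 amounted to 0.177 to 0.195 of Itga6 with antibody and 0.126 to 0.140 without. None of these ranges overlap between the arms. Set against Itgb1, Itga1 was at 0.0706 to 0.0744 with antibody and 0.0570 to 0.0672 without. Itga2 was at 0.175 to 0.189 of Itgb1 with antibody and 0.208 to 0.221 without, and Itga3 at 0.810 to 0.877 with antibody and 0.947 to 1.09 without. The ratio of Itga1 to Itga2 was 0.379 to 0.426 with antibody and 0.268 to 0.324 without, and its median was 1.35 times as high with antibody. A ratio of uncalled genes, Lama5 to Lama3, overlapped between the arms, at 359.6 to 508 with antibody and 328 to 922 without. The 922 came from replicate 3 without antibody, where Lama3 had 9 counts. This ratio is therefore imprecise and is no control for the others.

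**Figure D4:**
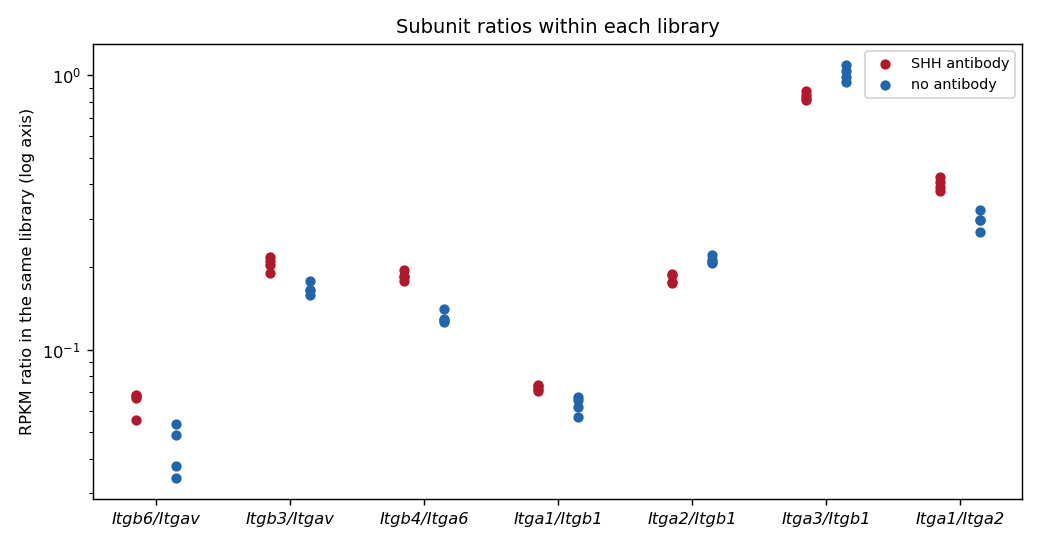
RPKM ratio of 2 integrin subunits, at least 1 of them called, within each library, on a log axis, with each library as a point and SHH antibody left of no antibody. The points of the arms do not overlap for any of the 7 ratios shown.

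The genes around the integrins were described by lists, which were chosen with earlier results of these data known, so their shares are a description. Of 22 other integrin ligands 14 were tested, and 3 rose and 3 fell, which is 42.9% of those tested, beside 8.4% of all genes tested. DESeq2 called 5 of 13 and limma voom 6 of 14. Thbs1, which encodes thrombospondin, a matrix protein that binds several integrins, averaged 119 ± 2.30 CPM with antibody and 86.8 ± 6.08 CPM without (log2 fold change 0.46 ± 0.05 SE, edgeR adjusted p = 4.33e-06). Vcam1, a cell surface ligand of ITGA4 and ITGA9 pairs, averaged 24.8 ± 0.474 CPM with antibody and 19.9 ± 2.29 CPM without (0.31 ± 0.08 SE, edgeR adjusted p = 0.0151). Cyr61, a matricellular integrin ligand, averaged 210.1 ± 45.5 CPM with antibody and 384 ± 44.0 CPM without (-0.87 ± 0.10 SE, edgeR adjusted p = 7.48e-06). Fibronectin, Fn1, the main RGD ligand, averaged 1290.0 ± 38.1 CPM with antibody and 1461 ± 29.5 CPM without (-0.18 ± 0.05 SE, edgeR adjusted p = 0.0178). The call of Fn1 was lost without replicate 1, 2 or 3 of the antibody arm (edgeR adjusted p = 0.0616, 0.0701 and 0.095) or replicate 2 in the arm with none (0.0513). That of Vcam1 was lost without replicate 3 of the antibody arm (edgeR adjusted p = 0.0543) or replicate 2 in the arm with none (0.0513). Cyr61 and Thbs1 kept theirs in all 8 fits without a single library. The other 2 called genes, named here after their values were seen, were Edil3, a secreted ITGAV ligand (0.48 ± 0.14 SE, edgeR adjusted p = 0.0338), and Ctgf, a matricellular protein (-0.19 ± 0.05 SE, edgeR adjusted p = 0.0201). The list's median log2 fold change was 0.05.

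Inside the cell, integrins are activated by talins and kindlins and signal through focal adhesion kinase and its adaptors. Of 46 such genes 43 were tested, and 1 rose and 1 fell, a share of 4.65% beside 8.4% over all genes tested. Fermt1, the kindlin of epithelial cells, averaged 185 ± 9.17 CPM with antibody and 156 ± 10.7 CPM without (log2 fold change 0.25 ± 0.05 SE, edgeR adjusted p = 0.00382). Cav1, caveolin, averaged 75.9 ± 5.01 CPM with antibody and 87.4 ± 2.88 CPM without (-0.20 ± 0.05 SE, edgeR adjusted p = 0.0197). Its call was lost without replicate 2 or 3 of the antibody arm (edgeR adjusted p = 0.117 and 0.077) or replicate 2 in the arm with none (0.0548). Kank1 (0.17, edgeR adjusted p = 0.0818) and Tns4 (-0.14, edgeR adjusted p = 0.0865), both adaptors at adhesion sites, were not called. Tns4 passed the test as lower when replicate 1 without antibody was left out (-0.18, edgeR adjusted p = 0.00292). Over the 22 alternatives Tns4 was called in 3 and not called in 19.

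Of 7 genes listed as hemidesmosome partners, 4 were tested and 1 was called, 25% beside 8.4% of all genes tested. Krt5, with 0 counts, Col17a1, with 5 counts in total, and Krt14, with 12 in total, were not tested. The tetraspanin gene Cd151 was the called one, as lower. It averaged 92.8 ± 1.46 CPM with antibody and 104 ± 5.05 CPM without (log2 fold change -0.17 ± 0.05 SE, edgeR adjusted p = 0.0342). Of the 8 fits without a single library it kept its call in 2, those without replicate 1 and without replicate 4 of the arm without antibody, and in the others the edgeR adjusted p was 0.072 to 0.104. The linker genes Plec (0.05, edgeR adjusted p = 0.603) and Dst (-0.08, edgeR adjusted p = 0.344) and the tetraspanin gene Cd9 (-0.03, edgeR adjusted p = 0.765) were not called. Of 20 genes of the basement membrane and of other laminin receptors 19 were tested and 1 rose, 5.26% beside 8.4% of all genes tested. Of the 19, 8 had an edgeR unadjusted p under 0.05, beside 21.5% of all genes tested. The gene that rose was Col4a5, a chain of type IV collagen. It averaged 47.8 ± 0.991 CPM with antibody and 41.1 ± 4.33 CPM without (0.21 ± 0.07 SE, edgeR adjusted p = 0.0467), and it kept its call in the same 2 fits, with an edgeR adjusted p of 0.09 to 0.147 in the others. Bcam, a laminin receptor of the immunoglobulin family (0.17, edgeR adjusted p = 0.0506), was not called. Nor were Dag1, which encodes dystroglycan (0.12, edgeR adjusted p = 0.114), and the syndecan gene Sdc4 (-0.12, edgeR adjusted p = 0.0939). Bcam passed as higher when replicate 1 without antibody was left out (0.18, edgeR adjusted p = 0.0362). Over the 22 alternatives Bcam was called as higher in 3, Sdc4 as lower in 4, and Dag1 in 0. Of 10 genes of latent TGF-beta and its receptors 9 were tested, and 0 were called by edgeR, DESeq2 and limma voom, with 2 at an unadjusted p under 0.05 in each. The counts of these TGF-beta genes are near the 8.4% and 21.5% of all genes tested.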

How the data were processed

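PolyA RNA of sorted cancer cells was sequenced with strand-specific libraries, per the labels' protocols, in 4 samples per arm. The submitters' processing notes name CASAVA 1.8.2, TopHat2 2.0.9 and the build GRCm38 (mm10); how reads were counted, with which strand setting and annotation, was not given in the sources used here. Whole-number read counts per gene and RPKM values were deposited by the authors. All 15265 genes with a count in every library have an RPKM equal to the count divided by gene length and column total (1 length per gene within 0.001), so both tables hold the same reads.

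The test across genes was that of edgeR 4.0.16 (R 4.3.3) on the counts: filterByExpr, TMM scaling, the quasi-likelihood test with arm as the only term, and Benjamini-Hochberg adjustment over 13626 genes at 0.05. CPM are TMM scaled, and intervals are at 95%. The RPKM values deposited by the authors were used for levels between genes. The test was checked on simulated counts. Alternatives used DESeq2 1.42.0, limma 3.58.1 (voom, or log2 of RPKM plus a pseudocount of 1 or 0.1), RLE and upper quartile scaling, other filters, a minimum fold of 1.2, a replicate block, a stellate marker covariate, thinning, and leaving out libraries.

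The members and lists were chosen with earlier results of these data known. Values in every library are given for called members, Itgb6, Itga5 and members of at least 10 RPKM in either arm, and up to 4 genes of smallest p are named per list. Total counts limit precision for low genes: a floor of 3 counts, for counting error only, was 0.191 to 0.301 CPM. A laminin chain, which enters the counts of members tested, and some other items of the files and labels are not reported here.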

Additional observations from a re-analysis of the deposited data

Results flagged for a closer look

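Of 76 groups of 4 libraries checked for a value standing far from the other 3, the following 9 did, where chance alone gives about 1 in 20. Replicate 1 without antibody supplied 6 of them. It had 500.8 CPM of Itga6, against 438.6 to 448.8 CPM in the other 3 libraries of its arm, 691.9 CPM of Itgb1, against 600.8 to 610.0 CPM, and 443.8 CPM of Lamb1, against 395.7 to 399.7 CPM. It also had 139.8 CPM of Fermt1, against 159.4 to 163.3 CPM, 367.6 CPM of Cd9, against 318.2 to 324.1 CPM, and 449.3 CPM of Cyr61, against 357.3 to 369.4 CPM. Itgb5 stood apart in both arms, at 93.72 CPM in replicate 1 with antibody, against 90.33 to 90.76 CPM in the other 3, and at 94.15 CPM in replicate 2 without antibody, against 87.28 to 87.84 CPM. Lama5 was at 795.0 CPM in replicate 3 with antibody, against 823.7 to 828.6 CPM.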

How the results depend on the processing

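Itgb6 and Itgb4 were called in 22 of 22 alternatives; Itga3, Itgb3 and Itga1 were called in 21, all but the minimum fold of 1.2, and Itga2 in 18. Under that minimum fold 2 members were called, and 115 genes in all. Across all genes 1144 were called; limma called 675 on log2(RPKM + 1) and 670 on log2(RPKM + 0.1), and 2263 were called without both replicates 1 and 4 of the arm without antibody. Leaving out single libraries gave 5 to 7 members and 679 to 1485 genes, the lowest being 679 without replicate 2 and 695 without replicate 3 of the antibody arm. Itga2 was lost on both RPKM scales (limma adjusted p = 0.0575 and 0.0571). The replicate block called 1005 genes and the same 6 members. Deviations of same-numbered samples over all genes tested correlated at -0.036 to 0.01, none best with its own number. These correlations gave no sign of pairing by number. Noise of low genes enters them, so they cannot decide whether the samples were paired. Some uncalled log2 fold changes turned sign. Itgb1 became -0.04 with the stellate covariate and -0.01 without replicate 4 with antibody or replicate 2, 3 or 4 without. Itga10 became -0.07 without replicate 3 of the arm without antibody. Without replicate 1 of that arm Lamb2 became 0.05, Lama3 0.04 and Cd9 0.02, and without both replicates 1 and 4 they became 0.01, 0.19 and 0.02. Lama3 became 0.15 in limma voom with sample weights. Over the fits without a single library the highest were 0.23 for Itga10 and 0.06 for Itgb1, and the lowest -0.08 for Lamb2, -0.36 for Lama3 and -0.06 for Cd9. For all these the cause was not tested. The 15 untested members and Lama3 had too few counts at this depth for a precise fold.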
